A study of Mus musculus with 4 samples.

Results

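AP-1 is a family of transcription factors that bind DNA as dimers through a basic region and a leucine zipper (bZIP). The family was examined here as 10 genes, chosen by name: the Fos subfamily (*Fos*, *Fosb*, *Fosl1*, *Fosl2*), the Jun subfamily (*Jun*, *Junb*, *Jund*), *Batf*, *Batf3* and *Atf3*. All 10 are rows of a deposited count table of 25239 genes. Of these, 8 reached 10 counts in 2 or more libraries and were tested, as did 11689 genes of the whole table; *Fosl1* did not, and *Batf3* had 0 counts in each library.

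The data are 4 RNA-seq libraries of NKT cells, which respond to lipid antigens on CD1d molecules, obtained from the small intestinal lamina propria (SI-LP) of unmanipulated WT C57BL/6Jax mice. The labels place replicates 3 and 4 in a first experiment and the other two, replicates 1 and 2, in a second, all of 1 condition. Values are listed in the order of replicates 1 to 4. All mice were adult and received a nanobody against ARTC2 shortly before the tissue was taken. The tissue was then stripped of epithelium and digested with warm enzymes, lymphocytes were enriched on Percoll, and live TCRβ+ CD1d-tetramer+ cells that lacked B220, CD11b, CD11c and CD8 were sorted. No library of NKT cells prepared in another way or from another tissue was analysed here, so the values describe the spread of AP-1 transcripts within SI-LP NKT cells. Nothing in the labels says whether a library is from 1 mouse or from pooled mice.

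AP-1 genes are best known as immediate early genes, transcribed within minutes of signals such as T cell receptor engagement, growth factors or stress, which reach them through MAP kinases. Fos proteins need a Jun partner to bind DNA, whereas Jun proteins also pair among themselves; BATF and BATF3 lack a domain of their own that activates transcription and pair with Jun proteins, in lymphocytes often together with IRF4 or IRF8. The dimers bind the sequence TGANTCA or the related cyclic AMP response element TGACGTCA, and NFAT factors bind next to them at many cytokine genes of activated T cells.

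The promoter stretches of 5 members are shown first: *Fos*, *Jun* and *Atf3*, which were higher by over 1 log2 unit in the same library of each experiment, and *Batf* and *Fosl2*, which were lower there by as much. Each is the 150 bases before the annotated start, 5′ to 3′ on the strand of the gene, from RefSeq on GRCm38.p6, the build that the positions in the table follow. Capitals mark the letters TGACG (the core of the response element above), TGACATCA (a variant of it) and TATAAA on either strand.
Fos, chr12:85473740-85473889, plus strand: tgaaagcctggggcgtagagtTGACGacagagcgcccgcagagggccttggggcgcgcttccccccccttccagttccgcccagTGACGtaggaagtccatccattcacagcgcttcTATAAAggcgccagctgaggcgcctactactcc
Jun, chr4:95052223-95052372, minus strand: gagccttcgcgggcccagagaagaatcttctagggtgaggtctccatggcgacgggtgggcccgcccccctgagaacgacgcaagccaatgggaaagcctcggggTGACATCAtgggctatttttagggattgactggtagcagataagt
Atf3, chr1:191183334-191183483, minus strand: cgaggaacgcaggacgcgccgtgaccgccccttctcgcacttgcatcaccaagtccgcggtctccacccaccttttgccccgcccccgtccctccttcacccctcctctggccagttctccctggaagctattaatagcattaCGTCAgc
Batf, chr12:85686570-85686719, plus strand: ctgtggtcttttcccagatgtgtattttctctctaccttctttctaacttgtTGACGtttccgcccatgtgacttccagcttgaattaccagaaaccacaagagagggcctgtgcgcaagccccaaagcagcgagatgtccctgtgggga
Fosl2, chr5:32136322-32136471, plus strand: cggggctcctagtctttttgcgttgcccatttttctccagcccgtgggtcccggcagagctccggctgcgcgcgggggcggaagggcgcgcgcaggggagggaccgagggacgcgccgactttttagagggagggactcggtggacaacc

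Over the 250 bases before the start, TGACG was found on either strand in 5 of the 9 members with a promoter entry (*Fos*, *Fosb*, *Junb*, *Batf* and *Atf3*), against 17.8% of 32851 promoter windows of the same length. The *Fos* window held it 66 to 62 and 129 to 125 bases before the start, and TATAAA 33 to 28 bases before it; TATAAA was found in 12.4% of all windows. TGACATCA was found in *Jun* alone, 45 to 38 bases before the start, and in 2.93% of all windows. The letters TGANTCA (6.75% of all windows), TGACGTCA (1.55%, a motif that also contains TGACG) and the CArG box (1.47%), to which serum response factor binds, were in none of the 9 windows. Bases further upstream than these 250 were not searched, so an absence here does not mean that a promoter lacks the motif. These matches are a description of the letters in each window, and were not tested against the levels. In the 3′ untranslated regions of the canonical GENCODE transcripts, the pentamer AUUUA of AU-rich decay elements occurred 4 times in *Fos* and *Jun*, 3 times in *Atf3*, 8 times in the long region of *Fosl2*, and in neither *Batf* nor *Batf3*. Per kilobase this was 4.91 for *Fos*, 4.12 for *Junb*, 3.24 for *Jun* and 2.53 for *Atf3*, against a median of 1.38 over 19612 genes. It was nearer the median for *Jund* (1.88), *Fosl2* (1.72) and *Fosl1* (1.57), and below it for *Fosb* (0.466).

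Depth and composition differed between the libraries. They held 3882803 to 8732858 counts on genes, of which the ribosomal RNA precursor *Rn45s* took 7.36% to 28.1%. Levels of 1 gene between libraries are therefore given as CPM with edgeR's TMM factors, and levels of different genes within a library as TPM, which also corrects for gene length. The smallest level that a library can show, taken as 3 counts, was 0.289 to 0.757 CPM. The 7 T cell markers, such as *Cd3e*, were all tested, as were the 7 markers of NKT1 cells. The T cell markers summed to 3089, 1050, 4578 and 1683 CPM in replicates 1 to 4. The 21 epithelial markers summed to 1007, 8524, 236 and 29989 CPM. Most of the sum in replicate 4 was *Lyz1*, which had 302, 340, 10.5 and 21258.5 CPM in replicates 1 to 4. *Epcam* had 61.3, 664, 6.51 and 443 CPM, higher in replicate 2 than in 4. Replicates 2 and 4 thus stood apart in each experiment, with fewer T cell and more epithelial transcripts, and values of replicates 1 and 3 alone are given below where they turn a result. The mast cell markers *Mcpt1*, *Mcpt2* and *Fcer1a* were at 0 in all 4 libraries, and *Cd8a* and *Cd8b1* together stayed at or below 1.25 CPM.

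The 10 genes together took 0.345% ± 0.0381 (SD, n = 4) of all counts, with 0.372%, 0.309%, 0.384% and 0.316% in replicates 1 to 4. Their summed TPM ranged from 2325 in replicate 4 to 3163 in replicate 3. The sum varied little beside its parts, and the libraries differed mainly in which members made it up. All 8 members tested stood above the median of the tested genes by mean TPM, and the median of their mean TPM was 237, against 23.2 for all tested genes. This did not hold in each library: the lowest percentile by TPM was 18.3 for *Batf* and 40.5 for *Atf3*.

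On average the Fos subfamily made up the larger part of the AP-1 transcripts, at 55.2% ± 10.1 of the summed TPM. The Jun subfamily held 37.2% ± 11.1, and in replicate 4 it held more than the Fos subfamily. The Fos subfamily held 68.1%, 58.2%, 49.0% and 45.6% in replicates 1 to 4, and the Jun subfamily 27.1%, 28.3%, 44.7% and 48.8%. The Fos share of the second experiment thus lay above that of the first, without overlap, and the Jun share below it. The shares are parts of the same sum, so the Jun result is not independent of the Fos result. By level, 14.7% of all tested genes were higher in the second experiment without overlap, and 14.4% were higher in the first. The difference in shares between the experiments was not tested. *Batf* held 3.45%, 0.211%, 5.99% and 0.236% in replicates 1 to 4. *Atf3* held 1.31%, 13.3%, 0.325% and 5.37%, the reverse of *Batf*. In replicates 1 and 3 alone the mean shares were 58.6% for the Fos subfamily, 35.9% for the Jun subfamily, 4.72% for *Batf* and 0.818% for *Atf3*. By summed counts, without correction for length, the Fos subfamily held 71.5% and the Jun subfamily 24.8%, since *Fosl2* has 5863 exonic bases and *Junb* 1840.

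**Figure D1:**
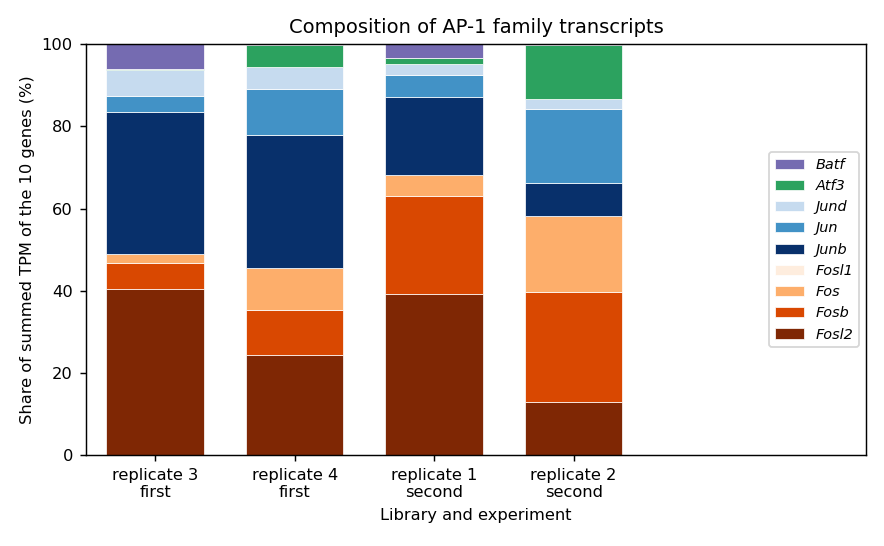
Share of the summed TPM of the 10 AP-1 genes (vertical axis, percent) held by each gene in each library (1 bar per library, first experiment left). *Fosl2* and *Junb* together hold 74.7% in replicate 3 and 21.0% in replicate 2, whereas *Fos*, *Jun* and *Atf3* together hold 6.33% and 49.6%.

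The most abundant member was *Fosl2* (chromosome 5, 32136472 to 32157839, GRCm38), which encodes the Fos-related antigen FRA-2, a Fos protein without the strong activation domain of c-FOS. It had 2169, 615, 3057 and 1353 CPM in replicates 1 to 4, a mean of 1798 ± 1052 CPM (SD, n = 4). Replicates 1 and 3 were the high libraries and replicate 2 the lowest, and the experiments overlapped. Its TPM placed it on average at percentile 98.2 of the 11689 tested genes and never below percentile 96.1. *Fosl2* was thus among the highest transcripts of each library.

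*Fosb* (chromosome 7, 19302696 to 19310045), whose product resembles c-FOS and is made in long and short splice forms that gene counts do not separate, had 851, 819, 315 and 391 CPM in replicates 1 to 4. The mean was 594 ± 280 CPM. Both libraries of the second experiment lay above both of the first, and the libraries within each experiment lay closer together than for any of the other 7 members tested. The second experiment exceeded the first by 1.24 log2 units (standard error 0.58, unadjusted p = 0.074, adjusted p = 0.9997, edgeR, Benjamini-Hochberg over all tested genes).

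*Fos* (chromosome 12, 85473890 to 85477274), the classical immediate early gene, was lower than both: 103, 314, 55.6 and 202 CPM in replicates 1 to 4, a mean of 169 ± 115 CPM. Replicates 2 and 4 were the high libraries of their experiments, and the highest library exceeded the lowest 5.65-fold. *Fos* stood on average at percentile 91.0 by TPM, from 81.1 in replicate 3 to 97.4 in replicate 2. *Fosl1* (chromosome 19, 5447698 to 5455938), which encodes FRA-1, had 18 counts in replicate 3 (4.04 CPM, exact Poisson interval 2.39 to 6.38 at 95%, which covers counting error only), 3 counts in replicate 2 and 0 in replicates 1 and 4. Its exons overlap those of *Ccdc85b*, so its few counts are uncertain.

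Of the Jun subfamily, all 3 genes of which have a single exon, *Junb* was the most abundant. *Junb* (chromosome 8, 84976909 to 84978748), which encodes a weak activator that can oppose c-JUN, had 329, 119, 818 and 560 CPM in replicates 1 to 4 (456 ± 301 CPM). *Jun* (chromosome 4, 95049036 to 95052222), which encodes c-JUN, a target of JUN N-terminal kinases, had 166, 462, 163 and 342 CPM (283 ± 146 CPM). *Jund* (chromosome 8, 70697739 to 70700616), the member known for the steadiest expression across tissues, had 72.8, 55.9, 235 and 142 CPM (126 ± 81.5 CPM). *Junb* and *Jund* were higher in both libraries of the first experiment than in either of the second, whereas *Jun* was higher in replicates 2 and 4 than in 1 and 3, whatever the experiment.

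*Batf* (chromosome 12, 85686720 to 85709087), needed for the differentiation of several effector T cell types, was detected in all libraries but at very different levels. It had 29.5 CPM in replicate 1 (212 counts) and 70.0 CPM in replicate 3 (312 counts), but 1.54 CPM in replicate 2 (16 counts, exact Poisson interval 0.88 to 2.50 CPM) and 2.02 CPM in replicate 4 (8 counts, 0.871 to 3.98 CPM). The intervals of the low libraries lie far below the high ones, so counting error does not span the gap of 45.5-fold between the extremes. *Batf3* (chromosome 1, 191098414 to 191108943), best known from dendritic cells, had 0 counts in each library. The exact Poisson interval then allows up to 0.355 CPM in replicate 2, the deepest library, and 0.930 CPM in replicate 4, the shallowest.

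*Atf3* (chromosome 1, 191170297 to 191183333), a gene of the stress response whose product often represses, was high where *Batf* was low. It had 24.5, 212, 8.30 and 100.1 CPM in replicates 1 to 4 (86.2 ± 92.9 CPM). The highest library exceeded the lowest 25.5-fold, and its percentile by TPM ran from 40.5 in replicate 3 to 96.3 in replicate 2. In replicates 1 and 3 alone, chosen after seeing the data, the mean CPM was 16.4 for *Atf3*, 49.8 for *Batf*, 79.4 for *Fos*, 165 for *Jun*, 583 for *Fosb*, 574 for *Junb*, 154 for *Jund* and 2613 for *Fosl2*. Because the libraries are of bulk RNA, a cell type that is rarer and one with less of a transcript per cell cannot be told apart for any of these genes.

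**Figure D2:**
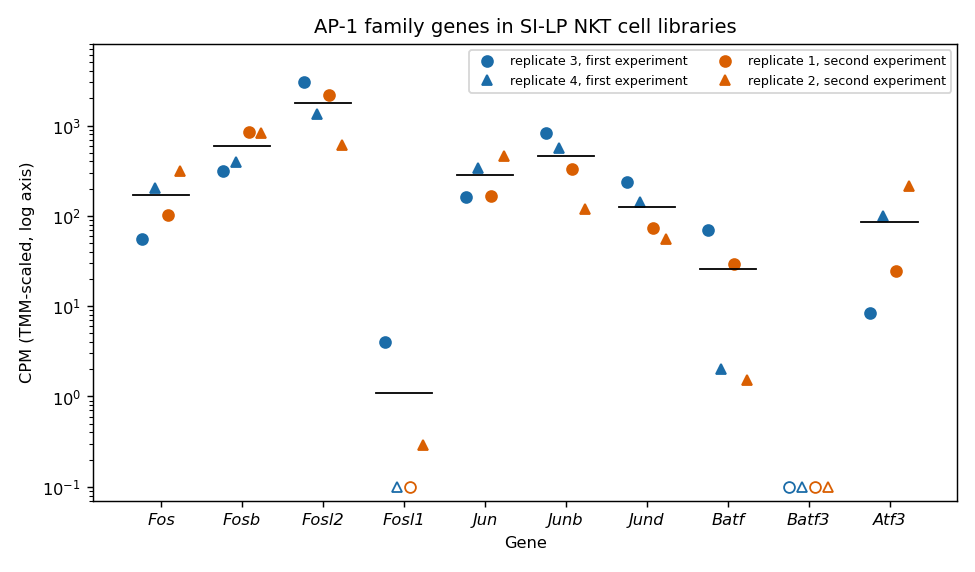
CPM of the 10 AP-1 genes (log axis) in each of the 4 libraries, with points coloured by experiment, circles for replicates 1 and 3, triangles for replicates 2 and 4, and black lines at the means over 4 libraries. Open symbols at the bottom are libraries with 0 counts. *Fosb* separates by colour, with 315 and 391 CPM against 819 and 851 CPM, while *Fos*, *Jun*, *Batf* and *Atf3* separate by symbol.

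By mean log2 TPM the order of the members was *Fosl2*, *Junb*, *Fosb*, *Jun*, *Fos*, *Jund*, *Atf3* and *Batf*. No neighbours in this order differed beyond their spread: the mean paired log2 difference was below its SD for all 7 pairs, and the exact two-sided sign-flip test over the 4 libraries, which cannot reach p = 0.05 with 4 libraries, gave adjusted p = 0.75 for each. The closest in rank were *Jun* and *Fos*, with a log2 difference of 0.29 ± 0.45, and the widest spread was that of *Atf3* over *Batf*, 1.19 ± 4.78. Replicate 4 had *Junb* as its first member, replicate 2 *Fosb*, and replicates 1 and 3 *Fosl2*. The order of *Fos* over *Jund* and of *Atf3* over *Batf* turned in the mean of replicates 1 and 3 alone, as log2 differences of -0.34 and -2.79.

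Ratios of members within a library do not depend on how libraries are scaled to each other. The ratio of *Fos* to *Jun* TPM was 0.938, 1.03, 0.515 and 0.894 in replicates 1 to 4, the narrowest range of the 8 ratios taken. The ratio of *Junb* to *Jund* was 7.07, 3.33, 5.44 and 6.16, so *Junb* was the higher in each library. Both pairs kept close ratios while their members moved several-fold.
Between these pairs the ratios changed widely. The ratio of *Jun* to *Junb* was 0.292, 2.24, 0.115 and 0.353 in replicates 1 to 4, and that of *Fos* to *Fosl2* 0.132, 1.42, 0.0506 and 0.416. Replicate 2 was the only library in which *Fos* exceeded *Fosl2* and *Jun* exceeded *Junb*. The ratio of *Atf3* to *Batf* was 0.380, 63.0, 0.0543 and 22.7.

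**Figure D3:**
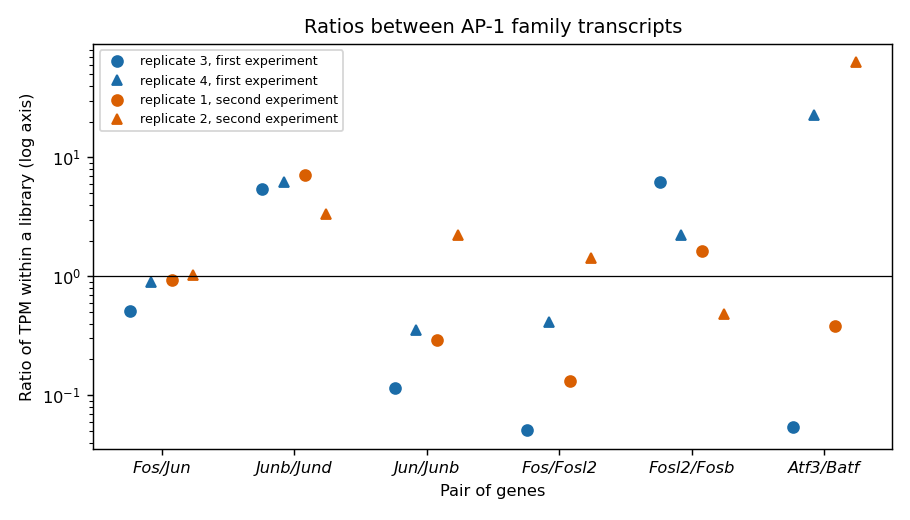
Ratio of the TPM of pairs of AP-1 genes within each library (log axis), with colours for experiments, circles for replicates 1 and 3 and triangles for replicates 2 and 4. *Fos*/*Jun* stays between 0.515 and 1.03 and *Junb*/*Jund* between 3.33 and 7.07, whereas *Atf3*/*Batf* spans 0.0543 to 63.0.

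The libraries of one experiment differed in the same members in both experiments. In log2 CPM, *Fos* was higher by 1.86 in replicate 4 than in 3 and by 1.6 in replicate 2 than in 1, *Jun* by 1.07 and 1.47, and *Atf3* by 3.54 and 3.10. *Batf* was lower, at -4.92 and -4.01, as was *Fosl2*, at -1.18 and -1.82. Thus 3 of the 8 members were higher by over 1 log2 unit in both, which held for 19.0% of all tested genes, and 2 were lower by as much in both, which held for 8.08%. *Junb* (-0.55 and -1.46), *Jund* (-0.73 and -0.38) and *Fosb* (0.31 and -0.06) did not pass that step in both. Each difference is of 1 library against 1 library and has no test.

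Epithelial and T cell markers moved with these differences in both experiments, while the lists of other cells were less uniform. The epithelial list had 17 of 21 genes higher by more than 1 log2 unit in both pairs, with medians of 5.62 and 3.28, and 0 were at 0 in all libraries. Of the 7 T cell markers, 5 were lower by as much in both, with medians of -1.47 and -1.18. The 10 myeloid markers summed to 67.7, 79.4, 34.3 and 167 CPM in replicates 1 to 4, with median log2 differences of 1.89 and 0.02. The 7 stromal and endothelial markers summed to 124, 19.1, 38.6 and 178 CPM, with medians of 3.88 and -5.13, opposite in the experiments. For the plasma cell markers the medians were 1.08 and -0.16. The 5 mast cell markers summed to 1.39, 63.2, 2.02 and 28.7 CPM. Nearly all of the larger mast cell sums was *Kit*, with 0.836, 63.2, 2.02 and 27.5 CPM, while *Mcpt1*, *Mcpt2* and *Fcer1a* had no counts. The part of these cells in the levels of *Fos*, *Jun*, *Atf3*, *Fosl2* and *Batf* was not tested.
With the T cell marker median set to 0 in each pair, which puts the median of all tested genes at 1.55 and 1.32, *Batf* was still lower (-3.44 and -2.83), *Fos* (3.33 and 2.79), *Jun* (2.54 and 2.66) and *Atf3* (5.02 and 4.28) were higher, and so was *Fosb* (1.79 and 1.13). On that scale *Fosl2* (0.30 and -0.63) and *Junb* (0.93 and -0.28) turned direction between the experiments. On that scale 4 of the 8 members were higher by over 1 log2 unit in both pairs, as were 44.1% of all tested genes, and 1, *Batf*, was lower, as were 1.02%.

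**Figure D4:**
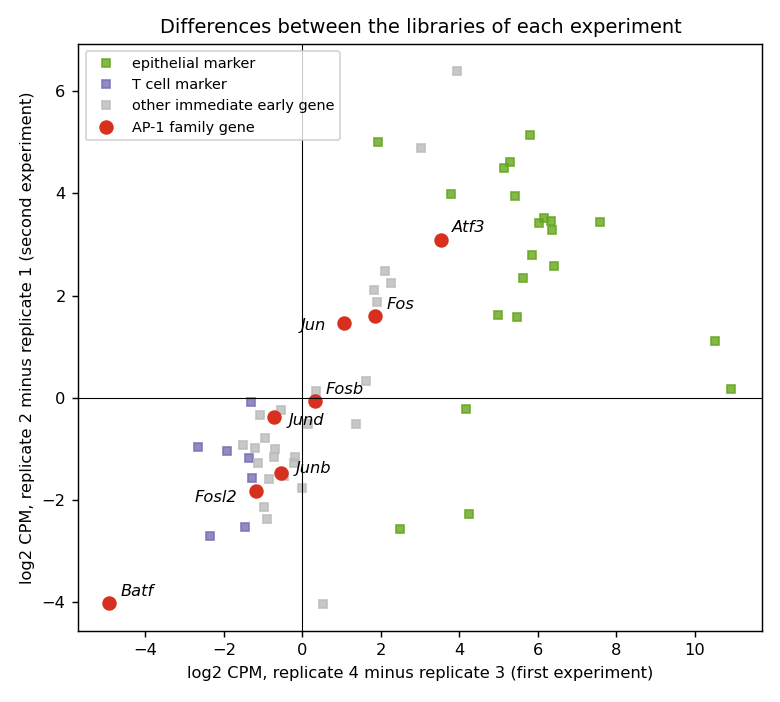
Differences in log2 CPM between the libraries of the first experiment (horizontal axis, replicate 4 minus 3) and of the second (vertical axis, replicate 2 minus 1), each point a gene: AP-1 members in red, epithelial markers green, T cell markers purple, other immediate early genes grey. *Atf3* (3.54, 3.10) lies toward the epithelial markers and *Batf* (-4.92, -4.01) beyond the T cell markers.

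Between the experiments, the members of replicates 1 and 2 against those of replicates 3 and 4, edgeR found an adjusted p under 0.05 for 0 members and 0 other genes (0.0% of 11689 tested), and DESeq2 for 0 members and 41 other genes (0.351%). The test measures the spread between libraries, since no condition separates the experiments. At an unadjusted p under 0.05 edgeR called 248 genes, and 1 of them was a member: *Jund*, with a log2 difference of -1.55 (standard error 0.59, unadjusted p = 0.0371), against 0.907% of all tested genes called lower in the second experiment and 1.21% called higher. *Junb* was at -1.62 (standard error 0.72, unadjusted p = 0.0607). *Junb* and *Jund* did not overlap between experiments with the first higher, which held for 14.4% of all tested genes, and *Fosb* did not with the second higher, which held for 14.7%. *Fos* (0.69), *Jun* (0.31), *Atf3* (1.13), *Fosl2* (-0.66) and *Batf* (-1.21) overlapped, with standard errors larger than these differences. The plasma cell markers also differed between the experiments, with summed levels of 6752, 7156, 293 and 485 CPM in replicates 1 to 4; their part in the levels of *Fosb*, *Junb* and *Jund* was not tested.

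The spread of the members can be set beside that of all genes. Their biological coefficient of variation, edgeR's estimate of the relative spread beyond counting error, had a median of 0.617 against 0.891 over all tested genes, from 0.514 for *Fosb* to 1.18 for *Batf*. That estimate is moderated across genes and leaves out the difference between experiments. The fold and the ratio of SD to mean below include it, so the measures are not of the same spread. When each library had to hold 10 counts or more (7 members, without *Batf*), the medians were 0.571 and 0.614, whereas the median fold between the highest and lowest library was 4.97 for these members and 3.26 for 8089 genes, and the median ratio of SD to mean 0.644 and 0.497. Over all that were tested, the highest library exceeded the lowest by a median of 5.31-fold over the members and 5.02-fold over all tested genes. *Batf* and *Atf3* varied most and *Fosb* (2.71-fold) and *Jun* (2.83-fold) least.

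For each member, the tested genes whose log2 CPM, centred on its mean, came closest over the 4 libraries were found by the root mean square difference. Each profile rests on 4 values only. *Fos* was closest to *Gpx1* (0.060 log2 units) and *Kmt5a* (0.084), *Jun* to *Mtmr11* (0.012) and *Celsr2* (0.053), and *Fosb* to *Cop1* (0.048) and *Ccnyl1* (0.070). *Atf3* was close to *Acrv1* (0.166). *Fosl2* was closest to *Tmem156* (0.023) and *B3galt5* (0.039), *Junb* to *Ints6l* (0.079) and *Ap2a2* (0.121), *Jund* to *Mcm2* (0.104) and *Irf7* (0.107), and *Batf* to *Klhl3* (0.270) and *Nmb* (0.302). Within the family the closest pairs were *Fos* with *Jun* (0.389) and *Junb* with *Jund* (0.410), so these pairs were further apart than each was from its nearest gene of the whole table.

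Upstream of AP-1, 35 of 37 kinases and transcription factors that transmit the signal were tested and 29 stood above the median TPM. The highest by TPM were *Rasgrp1* (255 ± 183 TPM), which activates Ras in T cells, *Rps6ka3* (181 ± 106 TPM), a kinase downstream of ERK, and *Elk4* (167 ± 90.6 TPM), a partner of serum response factor; *Elk1* was the lowest tested (5.06 ± 3.82 TPM) and *Mapk12* was at 0. Of the 35, 2 were higher and 4 lower by over 1 log2 unit in both pairs of libraries, beside 19.0% and 8.08% of all tested genes. *Rasgrp1* was among the lower ones, with 858, 205, 593 and 228 CPM in replicates 1 to 4.

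Of 32 other bZIP genes 28 were tested and 18 stood above the median TPM, led by *Crem* (597 ± 394 TPM), which encodes a modulator of cyclic AMP responses, *Atf4* (575 ± 108 TPM), of the integrated stress response, and *Xbp1* (331 ± 238 TPM), which is also a plasma cell marker. *Mafa* was the lowest tested, at 1.68 ± 1.88 TPM. *Crem* had 1558, 454, 1533 and 405 CPM in replicates 1 to 4. It was among 5 of the 28 bZIP genes that were lower by over 1 log2 unit in both, while 1 was higher. Over all tested genes these shares were 8.08% and 19.0%. *Atf4* had 425, 285, 371 and 376 CPM in replicates 1 to 4 and thus varied far less than *Atf3*.

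All 15 partner factors were tested and 13 stood above the median TPM. The ETS factors *Ets1* (651 ± 312 TPM), *Fli1* (198 ± 142 TPM) and *Ets2* (190 ± 74.6 TPM) were the highest and *Irf8* the lowest, at 11.9 ± 8.75 TPM. Of these factors 5 were lower by over 1 log2 unit in both experiments' pairs, as *Batf* was, and 1, *Irf8*, was higher. Over all tested genes these shares were 8.08% and 19.0%. *Nfatc1* and *Irf4*, which bind with AP-1 and with BATF and were named here after their values were seen, had 605, 131, 880 and 229 CPM and 73.1, 43.0, 45.5 and 12.4 CPM in replicates 1 to 4.

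Of 24 genes that AP-1 is known to act on in T cells, 18 were tested and 13 stood above the median TPM; *Il2*, *Il5* and *Il17a* were at 0 in all libraries. *Xcl1* (889 ± 608 TPM), a chemokine, *Gzmb* (659 ± 515 TPM), a protease of cytotoxic granules, and *Cd40lg* (613 ± 278 TPM) were the highest and *Itgae* the lowest tested (1.31 ± 1.28 TPM). Of the 18, 7 were lower and 2 higher by over 1 log2 unit in both, beside 8.08% and 19.0% of all tested genes. *Gzmb* had 696, 250, 370 and 94.6 CPM in replicates 1 to 4. Within each experiment it was lower in the library with fewer T cell transcripts, in which *Fos* and *Jun* were higher. Its log2 differences were -1.97 and -1.47, beside T cell marker medians of -1.47 and -1.18. The part of T cell content in the levels of *Gzmb* was not tested.

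All 27 other immediate early genes were tested and 25 stood above the median TPM, with *Tnfaip3* (980 ± 409 TPM), which encodes the NF-κB inhibitor A20, *Nr4a1* (870 ± 300 TPM) and *Dusp1* (866 ± 353 TPM) highest and *Klf2* lowest (4.48 ± 3.78 TPM). Of these 27 genes 6 were higher by over 1 log2 unit in both pairs and 1 was lower, beside 19.0% and 8.08% of all tested genes. The 6, named after their values were seen, were *Egr1*, *Egr2*, *Ier3*, *Klf2*, *Klf4* and *Klf10*. *Egr1* had 232, 1111, 196 and 944 CPM in replicates 1 to 4, and *Klf4*, which epithelial cells also use, 41.9, 155, 32.5 and 123 CPM. *Nr4a1*, with 839, 417, 1216 and 753 CPM in replicates 1 to 4, was lower in replicates 2 and 4.

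Of 15 heat shock genes, which respond to handling stress among other signals, 14 were tested and 13 stood above the median TPM. *Hspa8* (2832 ± 952 TPM), *Hsp90ab1* (2124 ± 369 TPM) and *Hspa5* (1266 ± 495 TPM) were the highest and *Dnajb4* the lowest (15.7 ± 8.68 TPM). By over 1 log2 unit in both pairs, 1 was higher and 1 lower, beside 19.0% and 8.08% of all tested genes. The list summed to 9194, 8701, 11892 and 5950 CPM in replicates 1 to 4. Between the experiments edgeR gave an adjusted p under 0.05 for 0 of the 11689 tested genes. That no gene of these lists was called follows from this and says nothing about the lists.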

How the data were processed

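The study's labels define 4 RNA-seq libraries of 1 condition; of 6 library columns in the table, 2 match no label used here and were not used. The methods name HISAT2 as the aligner, whereas the labels' processing notes list Bowtie2 and RSEM, so the aligner is uncertain; per the file headers, featureCounts 1.6.4 then assigned the primary alignments of paired-end reads to exons with no strand setting, giving the deposited raw counts per gene and the gene lengths. The table's header names an mm10 annotation and the methods name GRCm39; 99.60% of 25041 genes matched by symbol overlap their RefSeq position on GRCm38, which all coordinates follow. AUUUA counts come from GENCODE vM39.

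CPM used edgeR's TMM factors over genes that reached 10 counts in 2 or more libraries (log2 with a prior count of 2), and TPM the deposited lengths (log2 with a pseudocount of 0.5 counts). Experiments were compared by quasi-likelihood in edgeR, adjusted after Benjamini and Hochberg over 11689 genes; standard errors are the log2 difference over the root of its F. On simulated counts the test recovered most changed genes at a low spread but none at the spread of these libraries. Where nothing says that libraries came from separate animals, p-values measure only the spread between them. The members and lists were chosen with earlier results of these data known. Named genes are the members, the 3 highest and the lowest tested gene by TPM of each list, and the 2 nearest genes of each member; exceptions are marked, and some results are not reported here. Reads carry no molecular identifiers. Alternatives were DESeq2, other factors, filters and counts added before logs, CPM for TPM, and leaving out replicates. The fits ran in edgeR 4.0.16 and DESeq2 1.42.0 under R 4.3.3, and the other steps under Python 3.11.15 with pandas 2.3.3 and scipy 1.17.1.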

Additional observations from a re-analysis of the deposited data

Results flagged for a closer look

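*Fosl1* had a library far from the others: replicate 3 had 4.04 CPM (18 counts), whereas replicates 1, 2 and 4 did not exceed 0.289 CPM. The gap to the nearest library was 0.929 of the full range. It was the only one of 13 results examined in this way that stood out, where chance gives about 0.65. The exons of *Fosl1* overlap those of *Ccdc85b*, and the part of that overlap in the 18 counts was not tested.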

How the results depend on the processing

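Against 0 genes called between the experiments by edgeR (248 at an unadjusted p under 0.05), DESeq2 gave 41 genes and edgeR on all rows gave 60 genes; with 1 replicate left out edgeR called 0 to 81 (10 without replicate 3, 81 without replicate 4). No member was called under any of these. The causes were not tested. At an unadjusted p under 0.05 DESeq2 passed 3 members and edgeR 0 to 3, against 1. Without replicate 2, the differences between experiments turned for *Fos* (-0.31), *Fosl2* (0.001), *Jun* (-0.59) and *Atf3* (-1.14), and without replicate 3 for *Fosl2* (0.041), *Jun* (-0.12) and *Batf* (2.93); *Fosb*, *Junb* and *Jund* kept their direction in all of these fits. With 1 replicate left out, the differences ran from -0.31 to 1.91 for *Fos*, -1.81 to 0.041 for *Fosl2*, -0.59 to 0.94 for *Jun*, -4.49 to 2.93 for *Batf* and -1.14 to 3.83 for *Atf3*.

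Leaving out 1 replicate moved 3 mean levels by over 1.5 times: *Atf3* from 86.2 to 44.3 CPM without replicate 2, and *Batf* from 25.8 to 11.0 CPM and *Fosl1* from 1.08 to 0.096 CPM without replicate 3. With CPM in place of TPM, *Fosl2* exceeded *Junb* by 2.07 and *Jun* exceeded *Fos* by 0.89 log2 units, and *Junb* fell behind *Fosb* (-0.56). With 1 replicate left out, the difference ran from -0.17 to 1.21 for *Junb* over *Fosb*, -0.49 to 1.75 for *Jund* over *Atf3* and -0.39 to 2.99 for *Atf3* over *Batf*. In replicates 1 and 3 alone, an alternative chosen after seeing the data, *Fos* over *Jund* was -0.34 and *Atf3* over *Batf* -2.79. By summed counts the Fos share was 71.5% and the Jun share 24.8%. The members lower by over 1 log2 unit in both pairs numbered 1 in place of 2 with library size alone (4.69% of all genes) and when scaled to T cell markers (1.02%), and those higher numbered 3 (22.7%) and 4 (44.1%). In the latter, *Fosl2* (0.30), *Junb* (0.93) and *Jund* (0.75) turned for replicates 4 and 3, and *Fosb* (1.13) and *Jund* (0.80) for replicates 2 and 1, where *Fosb* also turned with library size alone (0.21). The median fold between extreme libraries was 2.97 to 5.31 with 1 replicate left out, lowest without replicate 2 and 3.28 without replicate 3. No paired analysis was possible because there is only 1 condition.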
